A study of Homo sapiens with 6 samples.

Results

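The transferases described here add the sugars that begin and end many glycans: sialic acid, fucose and, as the first sugar of O-glycans, N-acetylgalactosamine (GalNAc). They were taken by gene symbol alone, as all rows of the expression table named ST3GAL, ST6GAL, ST6GALNAC, ST8SIA, FUT or GALNT with a number, which gave 44 of 17039 genes: 18 sialyltransferases, 10 fucosyltransferases and 16 polypeptide GalNAc-transferases. Poly(A) RNA was compared between MDA-MB-231 cells, a human triple-negative breast cancer line and here the parental line, and MDA-MB-231-BR cells, a brain-metastatic variant of it whose name is shortened by its prefix in the plots. Each line had 3 libraries, told apart in the labels by a replicate number, and no separate cultures are named, so the p-values measure the spread between these libraries. MDA-MB-231-BR cells were kept in medium with G418 and MDA-MB-231 cells in the same medium without it, and the lines came from different sources, so line, antibiotic and culture history cannot be told apart. In bulk RNA, fewer cells with a transcript and less of it per cell cannot be told apart either.

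Sialyltransferases cap glycans with sialic acid in an α2,3, α2,6 or α2,8 linkage, and sialic acid is read by receptors such as siglecs and selectins. Fucosyltransferases build the H and Lewis antigens and, in the case of FUT8, the core fucose of N-glycans. The GALNT enzymes choose which serines and threonines of a protein will carry a mucin-type O-glycan, and each has its own preference for peptides. Altered sialylation, fucosylation and O-glycosylation are long-known features of carcinoma cells.

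The authors gave expression as FPKM, a fragment number scaled to transcript length and to library size, which allows an approximate comparison of levels between genes and libraries. The summed FPKM was 465020 to 472007 in the MDA-MB-231-BR libraries and 486937 to 496420 in the parental libraries. The totals therefore differed between the lines. Read counts were not used here and the depth is unknown. Log2 values correlated at 0.997 or above between libraries of a line and at no more than 0.902 between the lines, over 11124 genes that are no independent replicates. The expected markers of the lines (KRT8, KRT18, VIM, CD44 and EGFR) summed to 3123 to 3295 FPKM, mostly VIM (means 2553 in MDA-MB-231-BR and 2306 in parental cells). In the same order, the other means were 176 and 237 for KRT8, 273 and 352 for KRT18, 181 and 251 for CD44, and 91.2 and 33.3 for EGFR. PTPRC, CD3E, CDH5, VWF, GFAP, SOX10 and PGR stayed at or below 0.07 FPKM in every library. The endothelial list summed to 0.41 to 0.50 FPKM in MDA-MB-231-BR and 0.20 to 0.22 FPKM in parental cells, mostly PECAM1, and the neural and glial list to 0.14 to 0.23 and 0 to 0.03 FPKM, mostly RBFOX3, and their part in the results was not tested. ESR1 stood at 0.74 to 1.08 FPKM. CD68, listed as a leukocyte marker but also a lysosomal protein of other cells, was at 61.9 to 84.2 FPKM.

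Of the 44 transferase genes, 35 had a mean of at least 0.1 FPKM over the 6 libraries and were tested with limma, on log2 values of FPKM plus a pseudocount of 0.1. At an adjusted p under 0.05, 20 genes were higher in MDA-MB-231-BR cells and 8 were lower. Among all 13465 genes tested, 44.4% were called higher, 32.9% lower and 77.3% in either direction, against 57.1%, 22.9% and 80.0% of the transferases, so the count of calls alone sets these genes little apart. Changes of over 2-fold, a log2 fold change beyond 1 in size at the same p, were found in 11 transferases, all higher in MDA-MB-231-BR cells. The same criterion was met in the higher direction by 10.9% and in the lower direction by 4.34% of all genes tested, against 31.4% and none of the transferases. The median log2 fold change was 0.23 over the 35 transferases and 0.08 over all genes tested. Values were fully separated between the lines for 27 of the 35 (77.1%, against 78.4% of all genes tested), with 19 higher (44.9% of all genes) and 8 lower (33.5% of all genes). With a pseudocount of 1, 7 transferases rose by over 2-fold in place of 11. After quantile normalization, 16 transferases were called higher and 12 lower, with 9 higher by over 2-fold. After median-of-ratios scaling, 17 were called higher and 8 lower, with 11 higher by over 2-fold. Of all genes called with over 2-fold change 71.5% were higher, and after quantile normalization 53.9% were, with a median log2 change of 0.06 over the transferases and -0.06 over all genes tested.

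**Figure D1:**
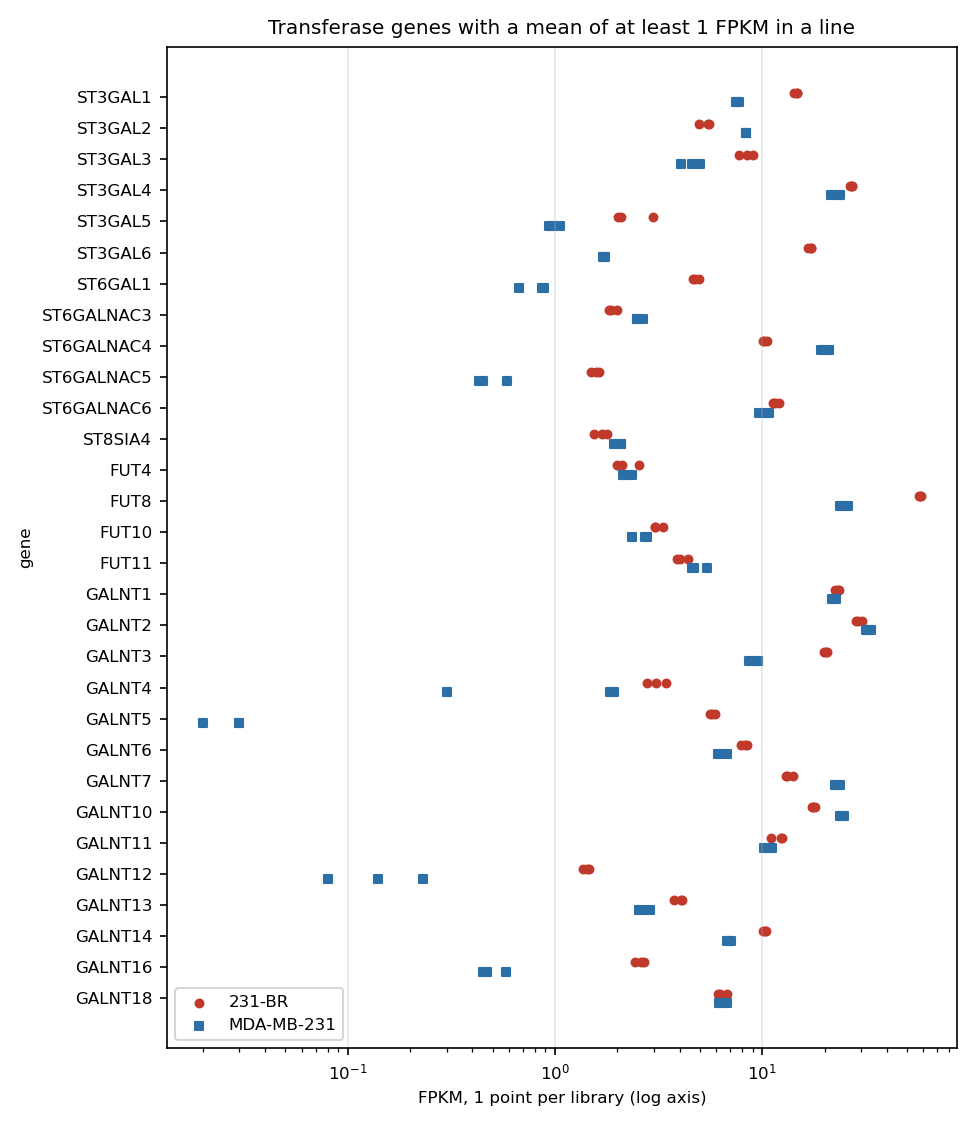
FPKM of the 30 transferase genes that averaged at least 1 in at least one line, on a log axis, with 1 point per library (red circles MDA-MB-231-BR, blue squares MDA-MB-231). GALNT5, GALNT12, GALNT16, ST3GAL6 and ST6GAL1 show the widest gaps, with all MDA-MB-231-BR libraries to the right, while ST6GALNAC4, GALNT7, GALNT10 and ST3GAL2 lie to the left in MDA-MB-231-BR cells.

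The α2,3-sialyltransferases were the sialyltransferases with the highest summed level. Of the 6, 5 were upregulated in MDA-MB-231-BR cells, where 44.4% of all genes tested were called higher. ST3GAL6, which sialylates lactosamine ends and takes part in making sialyl Lewis X, had 17.2, 17.2 and 16.6 FPKM in the MDA-MB-231-BR libraries and 1.73, 1.70 and 1.75 in the parental libraries. Its libraries lay far apart and close together within each line. The means differed 9.84-fold, with a log2 change of 3.23 (standard error 0.049, adjusted p = 1.42e-11). ST3GAL6 lies on chromosome 3, from 98732236 to 98821201 on the plus strand of GRCh38. Of its exon bases, 3.74% are shared with DCBLD2 on the opposite strand, and the use of strand is not known.

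ST3GAL4, which acts on the same kind of acceptor, was the most expressed sialyltransferase of both lines. It had 26.4, 27.1 and 27.1 FPKM in MDA-MB-231-BR cells against 21.5, 23.5 and 23.7 in parental cells, a small rise of 0.23 on the log2 scale (standard error 0.040, adjusted p = 0.000422). Within a library, ST3GAL6 reached 0.633 ± 0.020 of the level of ST3GAL4 in MDA-MB-231-BR cells and 0.0755 ± 0.0043 in parental cells (SD over 3 libraries). ST3GAL3, the third enzyme for lactosamine ends, had 8.47, 9.05 and 7.75 FPKM against 4.58, 5.01 and 4.05, a log2 change of 0.88 (standard error 0.083, adjusted p = 4.42e-06).

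ST3GAL1 and ST3GAL2 cap the core 1 disaccharide of O-glycans, and ST3GAL2 also acts on gangliosides. ST3GAL1 had 14.7, 14.7 and 14.2 FPKM in MDA-MB-231-BR cells against 7.71, 7.46 and 7.67 in parental cells, a log2 change of 0.92 (standard error 0.039, adjusted p = 1.14e-08). ST3GAL2 moved the other way, with 4.97, 5.53 and 5.45 FPKM against 8.38, 8.35 and 8.38 (log2 fold change -0.65, standard error 0.053, adjusted p = 1.47e-06). The lines did not overlap for either gene. The order of the genes also turned: ST3GAL2 was slightly above ST3GAL1 in the parental libraries and below it in the MDA-MB-231-BR libraries. ST3GAL5, the GM3 synthase at the entrance to the ganglioside pathway, had 2.09, 2.02 and 2.98 FPKM against 0.97, 1.06 and 0.94, a log2 change of 1.16 (standard error 0.14, adjusted p = 2.9e-05), with one MDA-MB-231-BR library above the other two. ST3GAL5 stayed called but came to 0.98 without that library, MDA-MB-231-BR replicate 3, and to 0.78 after quantile normalization and 0.75 with a pseudocount of 1, all under 2-fold.

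Added up, the 6 α2,3-sialyltransferases had 74.5 ± 0.942 FPKM in MDA-MB-231-BR cells and 46.2 ± 1.12 FPKM in parental cells (SD, 3 libraries each), 1.61 times as much. For this and every other family sum, the exact 2-sided permutation test with 3 libraries against 3 cannot give a p below 0.1, which is the value it gave here.

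ST6GAL1 makes the α2,6-linked sialic acid of N-glycans and is a well-studied enzyme of tumour cells. It had 4.73, 4.63 and 4.97 FPKM in the MDA-MB-231-BR libraries and 0.87, 0.89 and 0.67 in the parental libraries, which do not overlap. The means differed 5.90-fold (log2 fold change 2.43, standard error 0.105, adjusted p = 1.36e-08). Per 100 FPKM of ST3GAL3, ST3GAL4 and ST3GAL6 together, which compete with it for galactose ends, there were 9.14 ± 0.495 FPKM of ST6GAL1 in MDA-MB-231-BR cells and 2.78 ± 0.452 in parental cells (SD, 3 libraries each; exact 2-sided permutation p = 0.1, the smallest possible). ST6GAL1 was thus the lowest of the 4 transcripts in both lines. ST6GAL1 lies on chromosome 3, from 186930485 to 187078553 on the plus strand. Its paralogue ST6GAL2 did not exceed 0.02 FPKM in any library.

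The enzymes that attach α2,6-sialic acid to GalNAc or to gangliosides split between the lines: 2 rose, 2 fell and 1 of the 5 tested did not pass. The shares over all genes tested were 44.4% higher and 32.9% lower. ST6GALNAC5, a ganglioside sialyltransferase known from work on breast cancer cells that cross the blood-brain barrier, had 1.64, 1.5 and 1.58 FPKM in MDA-MB-231-BR cells against 0.45, 0.59 and 0.43 in parental cells. That is a log2 change of 1.51 (standard error 0.125, adjusted p = 1.61e-06), at a level that is low in both lines. With a pseudocount of 1, ST6GALNAC5 came to 0.79, under 2-fold. Its neighbour ST6GALNAC3, 233 kb away on chromosome 1, had 1.83, 1.87 and 1.99 FPKM against 2.67, 2.49 and 2.49 and fell by 0.41 on the log2 scale (standard error 0.075, adjusted p = 0.00058). The adjacent genes therefore moved in opposite directions.

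A second adjacent pair held a gene that fell and a gene that changed little. ST6GALNAC4, which makes the disialylated core 1 O-glycan, had 10.3, 10.5 and 10.0 FPKM in MDA-MB-231-BR cells against 19.3, 20.9 and 20.2 in parental cells. Its log2 change of -0.96 (standard error 0.041, adjusted p = 1.21e-08) was the largest fall among the transferases called, and it came to -1.04 after median-of-ratios scaling and -1.05 after quantile normalization. ST6GALNAC6, which lies 2.48 kb from it on chromosome 9 and acts on gangliosides and Lewis-type chains, had 12.01, 11.6 and 11.2 FPKM against 10.8, 10.5 and 9.63. Its rise of 0.17 (standard error 0.052, adjusted p = 0.0141) did not pass after median-of-ratios scaling (adjusted p = 0.158) or quantile normalization (0.274), or without MDA-MB-231-BR replicate 1 (0.058). The ratio of ST6GALNAC6 to ST6GALNAC4 was 1.13 ± 0.038 in MDA-MB-231-BR cells and 0.515 ± 0.044 in parental cells (SD, 3 libraries each).

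ST6GALNAC1, the sialyl-Tn synthase, was listed at 0 in 5 libraries and at 0.03 FPKM in the other. ST6GALNAC2 did not exceed 0.24 FPKM and did not pass (log2 change -0.73, standard error 0.363, adjusted p = 0.0922), but without MDA-MB-231-BR replicate 3 it came to -1.11 with an adjusted p of 0.012. The family as a whole had 25.4 ± 0.392 FPKM in MDA-MB-231-BR cells and 33.7 ± 0.982 in parental cells (SD, 3 libraries each), so it was the sialyltransferase family whose sum was lower in every MDA-MB-231-BR library.

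The α2,8-sialyltransferases, which lengthen sialic acid chains, were the least expressed family of MDA-MB-231-BR cells, while in parental cells the α2,6-sialyltransferases to galactose (0.813 FPKM) were lower still. The α2,8 enzymes had sums of 2.07 ± 0.249 and 2.14 ± 0.053 FPKM (SD, 3 libraries each) that overlapped between the lines (exact 2-sided permutation p = 0.7). After quantile normalization the difference was -0.63 FPKM with no overlap (exact p = 0.1). Most of it was ST8SIA4, a polysialyltransferase, with 1.54, 1.78 and 1.68 FPKM in MDA-MB-231-BR cells against 1.92, 2.08 and 2.08. It fell by 0.27 on the log2 scale (standard error 0.085, adjusted p = 0.0154), and without MDA-MB-231-BR replicate 1 its adjusted p was 0.0576. ST8SIA5 reached 0.23 to 0.48 FPKM in MDA-MB-231-BR cells and 0.04 to 0.12 in parental cells (log2 fold change 1.32, standard error 0.274, adjusted p = 0.00135), and ST8SIA1, the GD3 synthase, and ST8SIA6 stayed at or below 0.06 FPKM. ST8SIA2 and ST8SIA3 were not analysed here.

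FUT8 was the most expressed of all 44 genes in MDA-MB-231-BR cells. The enzyme adds the core fucose to N-glycans and is the only human one known to do so. It had 58.0, 57.1 and 58.4 FPKM in the MDA-MB-231-BR libraries and 25.9, 23.9 and 24.5 in the parental libraries, a 2.34-fold difference of the means (log2 fold change 1.22, standard error 0.033, adjusted p = 5.67e-10). FUT8 made up 85.6 ± 0.270% of the summed fucosyltransferase FPKM in MDA-MB-231-BR cells and 70.9 ± 0.341% in parental cells (SD, 3 libraries each). The sum itself was 67.6 ± 1.01 FPKM against 34.9 ± 1.42 FPKM (SD, 3 libraries each). FUT8 lies on chromosome 14, from 65410592 to 65744121 on the plus strand.

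No other fucosyltransferase changed by as much. FUT11 had 4.37, 3.86 and 4.03 FPKM in MDA-MB-231-BR cells against 5.42, 4.58 and 4.70 (log2 fold change -0.25, standard error 0.077, adjusted p = 0.0125), and without MDA-MB-231-BR replicate 2 its adjusted p was 0.0528. FUT10 had 3.03, 3.05 and 3.31 FPKM against 2.72, 2.77 and 2.35, a log2 change of 0.25 (standard error 0.081, adjusted p = 0.016), which turned to -0.03 after quantile normalization and did not pass without MDA-MB-231-BR replicate 3 (adjusted p = 0.0642) or MDA-MB-231 replicate 3 (0.0526). FUT10 and FUT11 are divergent members of the family that have been linked to fucose on proteins of the secretory pathway.

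The α1,3-fucosyltransferase FUT4, which fucosylates lactosamine and makes Lewis X, had 2.0, 2.11 and 2.53 FPKM in MDA-MB-231-BR cells against 2.12, 2.15 and 2.36 in parental cells, and the groups overlapped (log2 change -0.0032, standard error 0.098, adjusted p = 0.978), although after quantile normalization it came to -0.34 with an adjusted p of 0.0105. Of its exon bases, 11.3% are shared with PIWIL4 on the same strand. FUT1 and FUT2, which make the H antigen, stayed between 0.09 and 0.28 FPKM, and neither passed the test (adjusted p 0.127 and 0.544), but FUT1 was called lower after quantile normalization (-0.70, adjusted p = 0.0151) and without MDA-MB-231-BR replicate 2 (-0.62, adjusted p = 0.0278). FUT3, FUT5 and FUT6, near copies of each other in which reads could be divided, reached at most 0.06 FPKM, and FUT9 was listed at 0 in every library. Thus FUT4 was the one Lewis-type α1,3-fucosyltransferase above 0.1 FPKM among those measured. FUT7, the leukocyte enzyme for sialyl Lewis X, was not analysed here.

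**Figure D2:**
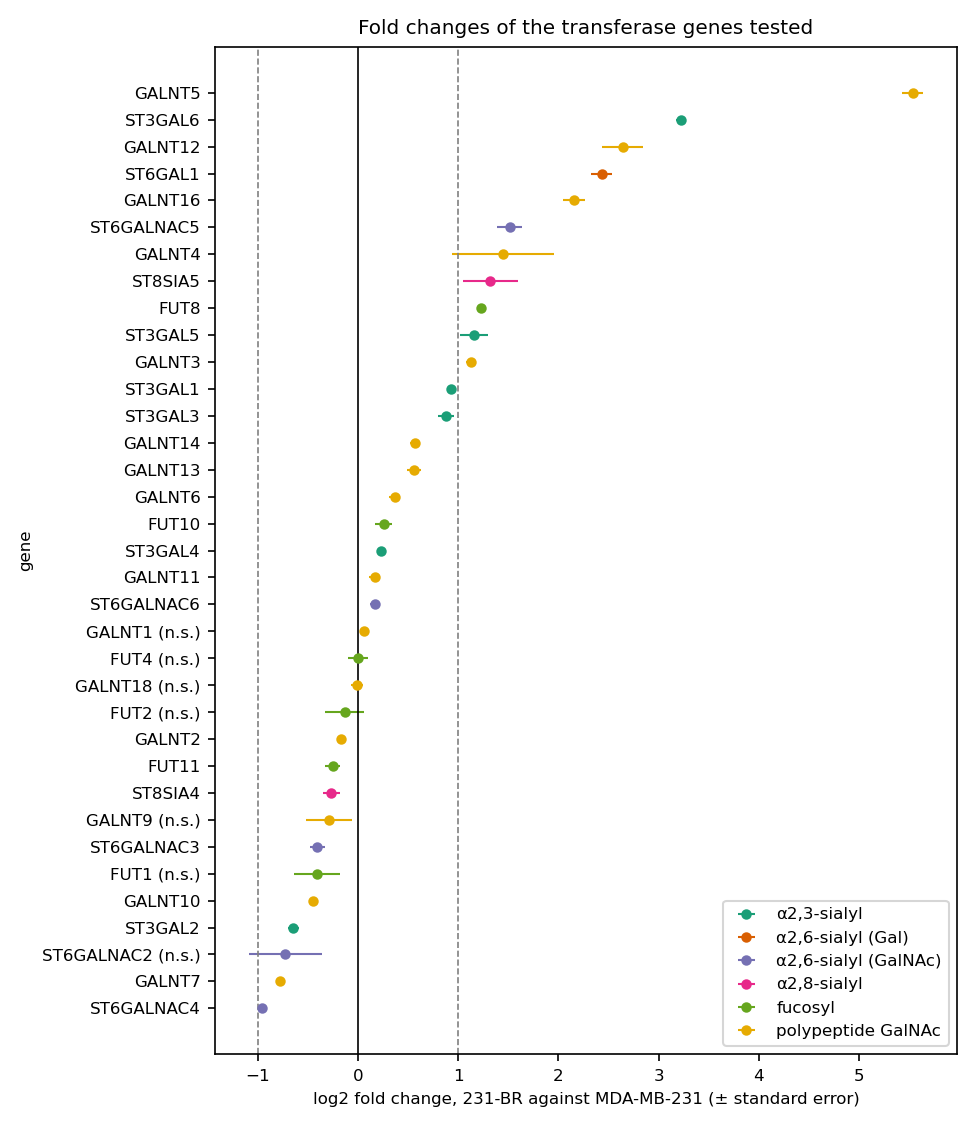
Log2 fold change of MDA-MB-231-BR against MDA-MB-231 cells for the 35 transferase genes tested, with standard errors from limma and colours by family. Dashed lines mark a 2-fold change, n.s. marks an adjusted p of at least 0.05, and the 11 genes past the upper line run from GALNT3 at 1.13 to GALNT5 at 5.54, with no gene past the lower line.

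Among the 16 polypeptide GalNAc-transferases, 15 were tested, 9 rose in MDA-MB-231-BR cells, 3 fell, and 5 rose by over 2-fold. Over all genes tested, 44.4% were called higher, 32.9% lower and 10.9% higher by over 2-fold. The 9 include GALNT11 and the 5 include GALNT4, whose calls depended on the setting, as given below. GALNT5 stood out by going from almost nothing to a moderate level. It had 5.95, 5.62 and 5.75 FPKM in the MDA-MB-231-BR libraries and 0.02, 0.03 and 0.03 in the parental libraries. The log2 change was 5.54 (standard error 0.106, adjusted p = 5.66e-11), and because the lower level is near 0 it depends on the pseudocount, from 2.72 with 1 to 7.31 with 0.01. GALNT5 lies on chromosome 2, from 157257598 to 157314211 on the plus strand.

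GALNT12 and GALNT16 were also low in parental cells. GALNT12, a gene studied in colon cancer whose product acts on mucin peptides, had 1.36, 1.42 and 1.46 FPKM in MDA-MB-231-BR cells against 0.08, 0.23 and 0.14 (log2 fold change 2.64, standard error 0.202, adjusted p = 8.82e-07). GALNT16 had 2.59, 2.68 and 2.43 FPKM against 0.47, 0.45 and 0.58 (log2 fold change 2.16, standard error 0.110, adjusted p = 4.39e-08). In both cases every MDA-MB-231-BR library was above every MDA-MB-231 library.

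GALNT3 and GALNT6 are related enzymes of the same subfamily that glycosylate fibronectin, and GALNT3 also protects the hormone FGF23 from cleavage. GALNT3 had 20.3, 20.7 and 19.8 FPKM in MDA-MB-231-BR cells against 9.57, 9.56 and 8.59 in parental cells, a log2 change of 1.13 (standard error 0.048, adjusted p = 1.2e-08). GALNT6 had 8.30, 8.49 and 7.92 FPKM against 6.75, 6.13 and 6.24, a smaller rise of 0.37 (standard error 0.053, adjusted p = 0.000116). Of the exon bases of GALNT6, 5.34% are shared with SLC4A8 on the opposite strand. Set against GALNT1 and GALNT2, the general starters of O-glycans, the summed level of GALNT3 and GALNT6 was 0.546 ± 0.0085 in MDA-MB-231-BR cells and 0.284 ± 0.0077 in parental cells (SD, 3 libraries each).

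The general starters GALNT2 and GALNT1 and, at a lower level, GALNT11 had log2 changes under 0.2 in size. GALNT2 had 28.4, 30.3 and 28.9 FPKM in MDA-MB-231-BR cells against 33.4, 33.2 and 31.7, and fell by 0.17 (standard error 0.034, adjusted p = 0.0013). GALNT1 had 23.1, 23.5 and 22.5 FPKM against 22.6, 21.8 and 22.0, and did not pass (log2 fold change 0.06, standard error 0.032, adjusted p = 0.127). GALNT11, an enzyme with little activity on mucins that has been tied to Notch and to endocytic receptors, had 11.1, 12.3 and 12.5 FPKM against 10.2, 11.2 and 10.6, with an overlap of the groups (log2 fold change 0.17, standard error 0.055, adjusted p = 0.0184). GALNT11 was not called after median-of-ratios scaling (adjusted p = 0.19). Over 15 settings, the main one included, its log2 change ran from 0.064 to 0.22. The adjusted p reached 0.311, and 5 settings did not keep the call.

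GALNT7 and GALNT10 differ from the starters in that they prefer peptides that already carry a GalNAc, and both fell. GALNT7 had 14.2, 13.1 and 13.1 FPKM in MDA-MB-231-BR cells against 23.8, 23.1 and 22.4 in parental cells (log2 fold change -0.78, standard error 0.041, adjusted p = 6e-08). GALNT10 had 17.9, 17.6 and 17.5 FPKM against 24.3, 24.8 and 23.7 (log2 fold change -0.45, standard error 0.032, adjusted p = 4.3e-07). Their summed level was 31.1 ± 0.840 FPKM against 47.3 ± 1.03 FPKM (SD, 3 libraries each).

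A pair of members with narrower expression in tissues rose by less than 2-fold. GALNT14, which glycosylates death receptors, had 10.3, 10.5 and 10.1 FPKM in MDA-MB-231-BR cells against 6.75, 7.0 and 7.07 (log2 fold change 0.56, standard error 0.042, adjusted p = 7.7e-07). GALNT13, a form known from neurons, had 4.08, 4.06 and 3.76 FPKM against 2.60, 2.86 and 2.55 (log2 fold change 0.55, standard error 0.071, adjusted p = 4.26e-05). GALNT18 had 6.12, 6.74 and 6.28 FPKM against 6.20, 6.34 and 6.73, and the groups overlapped (log2 change -0.01, standard error 0.056, adjusted p = 0.878), and after quantile normalization the gene came to -0.19 with an adjusted p of 0.0108. GALNT9 and GALNT15 stayed at or below 0.17 FPKM, and GALNT8 and GALNT17 were not analysed here.

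GALNT4 needs care. It had 2.79, 3.06 and 3.43 FPKM in MDA-MB-231-BR cells against 1.93, 1.85 and 0.30 in parental cells, a log2 change of 1.45 with a standard error of 0.507 (adjusted p = 0.0242), and 1 MDA-MB-231 library lay far below the other two. In GENCODE release 29, 93.2% of the exon bases of GALNT4 are shared, on the same strand, with the read-through gene POC1B-GALNT4. That gene had 2.47, 1.82 and 1.32 FPKM in MDA-MB-231-BR cells and 1.37, 1.20 and 2.60 in parental cells, so it was highest in the MDA-MB-231 library in which GALNT4 was lowest. Added together, although their transcripts differ in length, the genes had 5.26, 4.88 and 4.75 FPKM against 3.30, 3.05 and 2.90. The sum gave a log2 change of 0.67 (standard error 0.070, adjusted p = 8.93e-06), an analysis chosen after the values had been seen. GALNT4 did not pass without any 1 of the MDA-MB-231-BR libraries (adjusted p 0.0524 to 0.0689) or after quantile normalization (0.0663). It also did not pass with no filter on low values (adjusted p = 0.0945) or with eBayes without the trend (0.0885). Without MDA-MB-231 replicate 3, GALNT4 alone gave 0.68 (standard error 0.098, adjusted p = 0.000257), so its place above 2-fold rests on that library.

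**Figure D3:**
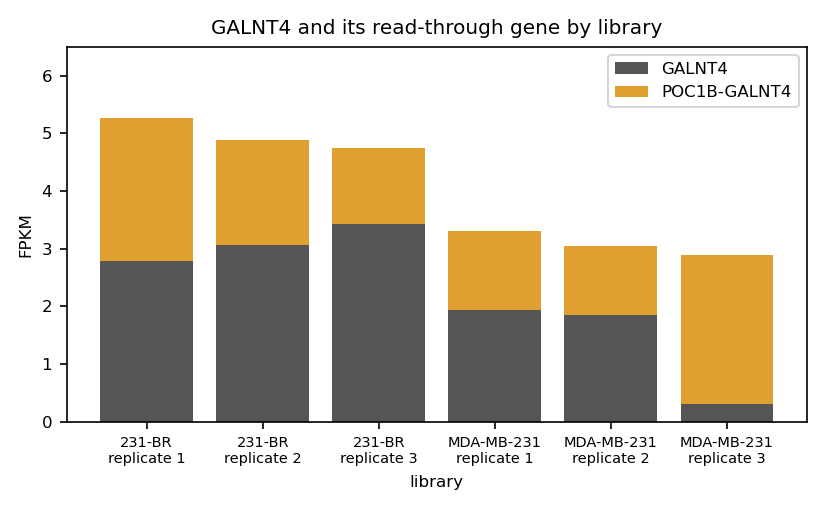
FPKM of GALNT4 (grey) and of its read-through gene POC1B-GALNT4 (orange), stacked for each of the 6 libraries. The share of GALNT4 is smallest in MDA-MB-231 replicate 3 (0.30 of 2.90 FPKM), while the stacked height is 2.90 to 3.30 FPKM in parental cells and 4.75 to 5.26 FPKM in MDA-MB-231-BR cells.

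The summed level of the polypeptide GalNAc-transferases changed less than its make-up. It was 157 ± 2.41 FPKM in MDA-MB-231-BR cells and 147 ± 3.39 FPKM in parental cells (SD, 3 libraries each), or 1.07 times as much. That difference of 10.7 FPKM was 1.95 FPKM after median-of-ratios scaling (exact 2-sided permutation p = 0.6) and 0.51 FPKM after quantile normalization (exact p = 0.8). GALNT3 went from 6.29 ± 0.241% to 12.9 ± 0.107% of it, and GALNT5 from 0.0182 ± 0.0041% to 3.67 ± 0.147%. GALNT7 went from 15.7 ± 0.237% to 8.55 ± 0.436%, and GALNT10 from 16.5 ± 0.185% to 11.2 ± 0.229% (SD, 3 libraries each). GALNT2 held the largest share in both lines, 22.3 ± 0.10% in parental cells and 18.5 ± 0.402% in MDA-MB-231-BR cells (SD, 3 libraries each). All 18 sialyltransferases together had 107 ± 1.09 FPKM in MDA-MB-231-BR cells against 82.8 ± 1.89 (SD, 3 libraries each), and here ST3GAL6 went from 2.09 ± 0.073% to 15.9 ± 0.278% of the sum while ST6GALNAC4 went from 24.3 ± 0.496% to 9.62 ± 0.138%.

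**Figure D4:**
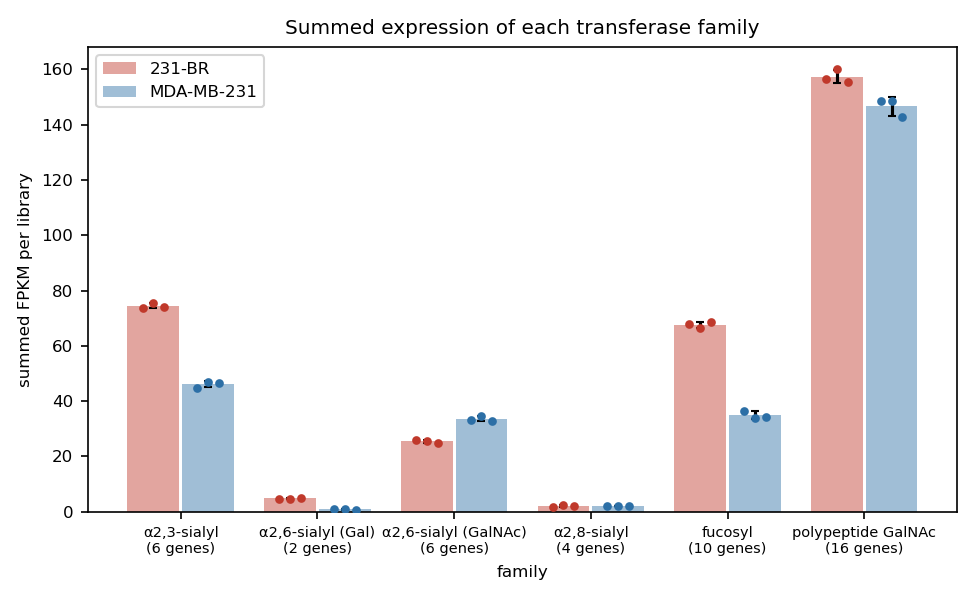
Summed FPKM of the 6 transferase families in each line, with bars for the mean of 3 libraries, error bars for the SD and points for the libraries. The α2,3-sialyltransferases (74.5 against 46.2) and fucosyltransferases (67.6 against 34.9) were higher in MDA-MB-231-BR cells, the α2,6-sialyltransferases to GalNAc were lower (25.4 against 33.7), and the α2,8-sialyltransferases overlapped.

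The start regions of ST6GAL1 and GALNT12, which rose by over 4-fold, and of ST6GALNAC4, which had the largest fall among the genes called, are shown so that genes that moved oppositely can be set side by side. They were taken from the 250 bases before the only start held for each gene in the promoter set used (RefSeq, GRCh38.p14). They are read 5′ to 3′ on the strand of the gene, with CpG dinucleotides in capitals. The set does not cover every gene, and other starts of these genes were not examined. GENCODE starts ST6GAL1 earlier, so the 41 bases of its window that lie in an exon are left out. Of the GALNT16 window, 194 bases lie in an exon of the gene in GENCODE, and its sequence is not shown. GALNT5 had no entry in the table used.
ST6GAL1, chr3:186930276-186930484, plus strand: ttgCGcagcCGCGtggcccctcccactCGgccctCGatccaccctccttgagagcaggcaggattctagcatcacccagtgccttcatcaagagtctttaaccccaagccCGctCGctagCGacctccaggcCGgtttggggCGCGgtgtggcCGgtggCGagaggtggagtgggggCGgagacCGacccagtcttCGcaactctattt
GALNT12, chr9:98807420-98807669, plus strand: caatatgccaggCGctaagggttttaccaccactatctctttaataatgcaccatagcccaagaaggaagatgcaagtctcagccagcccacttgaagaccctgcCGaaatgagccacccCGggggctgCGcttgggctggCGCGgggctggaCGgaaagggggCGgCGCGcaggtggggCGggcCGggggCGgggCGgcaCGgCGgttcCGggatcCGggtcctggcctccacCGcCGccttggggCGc
ST6GALNAC4, chr9:127917042-127917291, minus strand: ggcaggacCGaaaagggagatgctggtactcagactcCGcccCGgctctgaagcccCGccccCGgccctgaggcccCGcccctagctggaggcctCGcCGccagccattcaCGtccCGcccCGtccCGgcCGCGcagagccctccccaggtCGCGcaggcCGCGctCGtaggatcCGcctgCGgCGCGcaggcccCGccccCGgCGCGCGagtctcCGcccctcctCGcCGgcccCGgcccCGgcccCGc

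The full windows held 22 CpG dinucleotides for ST6GAL1, 21 for GALNT12 and 34 for ST6GALNAC4. Over the 35116 windows of the table the median was 11 and the upper quartile 23, and over the windows of the transferases the median was 20.5. ST6GAL1 and GALNT12 were thus above the median but within the middle range of all windows, and ST6GALNAC4 was above it. Windows were found for 32 of the 44 transferase genes, 54 windows in all because several genes have more than one start. The GC box GGGCGG, searched on both strands, was present in 61.1% of the 54 windows and 42.6% of all promoters, the CCAAT box in 31.5% and 32.0%, and the TATA box TATAAA in none and 10.7%. GC-box letters themselves hold a CpG, and windows of one gene can overlap.

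The genes lie on many chromosomes, and their surroundings were compared by the median log2 fold change of up to 40 neighbouring genes, 20 on either side, with a mean of at least 1 FPKM. For ST3GAL6, ST6GAL1 and GALNT12 it was 0.20, 0.12 and 0.17, and for GALNT3 and GALNT5 on chromosome 2 it was -0.23 for each. For FUT8 and GALNT16, both on chromosome 14, it was 0.31 and 0.35. These 7 genes each changed by over 1 themselves, so a lower median over their neighbours says little about position. Over all 11124 genes with a mean of at least 1 FPKM the median was 0.06. ST3GAL1 on chromosome 8 had neighbours with a median of 0.86, near its own 0.92, GALNT4 on chromosome 12 had neighbours at 0.62, and ST8SIA5 had neighbours at 0.55. GALNT7 fell by 0.78 where its neighbours on chromosome 4 stood at 0.44. The part that chromosomal position plays in any of these values was not tested.

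The donors and acceptors on which the transferases work were followed in 10 lists of pathway genes, of which 75 genes were in the table and 64 were tested. Over 2-fold changes were found in 11 of the 64 in the higher direction (17.2%, against 10.9% of all genes). In the lower direction there was 1 (1.56%, against 4.34% of all genes). The higher count was 6 with a pseudocount of 1, and 7 with a filter at 1 FPKM, where fewer low genes are tested. At an adjusted p under 0.05, 32 of the 64 were higher and 21 lower, in all 82.8% against 77.3% of all genes tested, so the counts of calls in the lists are given as descriptions beside shares of 44.4% higher and 32.9% lower over all genes. In the supply of sialic acid, 4 of 5 genes were higher and none was lower. GNE, which catalyses the first, rate-limiting steps of sialic acid synthesis, had 10.5, 10.2 and 10.2 FPKM in MDA-MB-231-BR cells against 5.06, 4.50 and 4.90 in parental cells (log2 fold change 1.09, standard error 0.054, adjusted p = 3.6e-08). NANS, the sialic acid 9-phosphate synthase, was the most expressed gene of that list and rose from 62.3 ± 0.355 to 80.2 ± 2.54 FPKM (SD, 3 libraries each; log2 fold change 0.36). CMAS, which activates sialic acid to its CMP form, did not pass, with a log2 change of -0.01 (standard error 0.036, adjusted p = 0.87).

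Of the sialidases and sialic acid modifiers, 4 of the 5 tested were higher. The exception was the lysosomal sialidase NEU1, which went from 18.3 ± 0.331 to 12.2 ± 0.635 FPKM (SD, 3 libraries each; log2 fold change -0.58, adjusted p = 7.49e-07). NPL, the lyase that breaks down free sialic acid, rose from 0.337 ± 0.0058 to 1.28 ± 0.108 FPKM (SD, 3 libraries each; log2 fold change 1.66, adjusted p = 4.13e-07). Genes for synthesis and for breakdown of sialic acid were therefore both among those that rose.

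The supply of GDP-fucose changed less than FUT8. Of 6 genes tested, 2 were higher, 1 was lower and none passed 2-fold. The most expressed of them, TSTA3, the last enzyme of GDP-fucose synthesis, had a log2 change of 0.10 (standard error 0.032, adjusted p = 0.0147), close to the median of 0.08 over all genes tested. FUCA1, the lysosomal fucosidase, had 7.37, 7.81 and 8.01 FPKM in MDA-MB-231-BR cells against 1.98, 1.66 and 2.45 (log2 fold change 1.89, standard error 0.116, adjusted p = 1.64e-07). The other 3 genes of its list were lower, among them POFUT1, the O-fucosyltransferase of Notch, with a log2 change of -0.09 (standard error 0.025, adjusted p = 0.00862). For UDP-GalNAc, 3 of 8 genes were higher and 3 lower, and UAP1, the most expressed, had a log2 change of 0.61 (standard error 0.020, adjusted p = 2.38e-09).

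Among the genes that extend O-GalNAc, 3 of 4 tested were higher. B3GNT3, which extends core 1 O-glycans toward selectin ligands, had 2.39, 2.81 and 2.57 FPKM in MDA-MB-231-BR cells against 0.54, 0.47 and 0.55 (log2 fold change 2.12, standard error 0.104, adjusted p = 3.36e-08). GCNT1, the core 2 branching enzyme, had 6.42, 5.86 and 5.78 FPKM against 2.32, 2.42 and 2.54 (log2 fold change 1.28, standard error 0.066, adjusted p = 5.21e-08). C1GALT1C1, the chaperone of the core 1 synthase and the most expressed gene of this list, fell by 0.42 (standard error 0.045, adjusted p = 1.11e-05).

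Of the N-glycan branching genes, 2 were higher and 4 lower of 7 tested, with a median log2 change of -0.37. MGAT4B, which adds a branch to N-glycans, went from 92.0 ± 3.70 to 46.4 ± 1.37 FPKM (SD, 3 libraries each; log2 fold change -0.99, adjusted p = 3.29e-09). In lactosamine synthesis 5 genes were higher and 5 lower, and the branching enzyme GCNT2, the most expressed, fell by 0.45 (adjusted p = 1.74e-06). In the ganglioside list, UGCG, which makes glucosylceramide, rose by 0.63 (adjusted p = 7.18e-08), whereas B4GALNT1, the GM2 and GD2 synthase that competes with longer sialylation for GM3 and GD3, had 1.30, 1.25 and 1.19 FPKM in MDA-MB-231-BR cells against 3.71, 3.91 and 3.95. B4GALNT1 was the one pathway gene that fell by over 2-fold (log2 fold change -1.56, standard error 0.074, adjusted p = 2.64e-08).

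**Figure D5:**
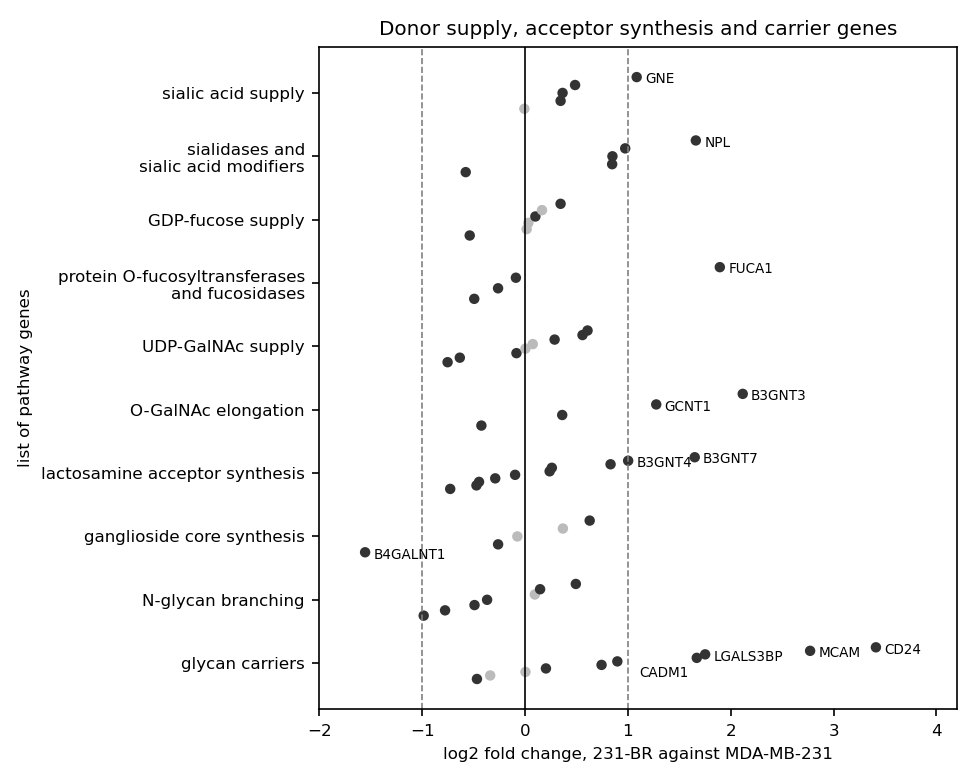
Log2 fold changes of the 64 pathway genes tested, grouped by list, where dark points have an adjusted p under 0.05 and grey points do not. Dashed lines mark a 2-fold change, and the 12 named genes lie beyond them, with B4GALNT1 at -1.56 and CD24 at 3.41 as the extremes.

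Of the glycoproteins that carry these glycans, 7 of 10 tested were higher and 1 was lower. CD24, a small mucin-like ligand of siglecs and P-selectin that has near-identical copies in the genome, had 19.4, 17.9 and 18.5 FPKM in MDA-MB-231-BR cells against 1.54, 1.66 and 1.78 (log2 fold change 3.41, standard error 0.063, adjusted p = 4.64e-11). MCAM, an adhesion molecule, had 50.5, 49.8 and 49.6 FPKM against 7.24, 7.28 and 7.16 (log2 fold change 2.77, standard error 0.030, adjusted p = 2.99e-12). LGALS3BP, a secreted galectin-binding glycoprotein, rose from 35.2 ± 1.17 to 119 ± 2.18 FPKM (SD, 3 libraries each; log2 fold change 1.75). CD44, the most expressed carrier, was the one that fell, from 251 ± 2.67 to 181 ± 3.95 FPKM (SD, 3 libraries each; log2 fold change -0.47, adjusted p = 3.58e-08). The polysialic acid carrier NCAM1 did not exceed 0.01 FPKM in any library.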

How the data were processed

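Poly(A) RNA of 6 libraries, 3 of MDA-MB-231-BR and 3 of MDA-MB-231 cells, was analysed. The authors filtered reads with SOAPnuke, aligned them with HISAT2 2.0.4 to the genome (GRCh38.p12 in the submitters' processing notes) and with Bowtie2 2.2.5 to a gene set, and deposited expression as FPKM with 2 decimals, without further normalization. The program for the FPKM and the use of strand are not given in the sources used here. The 6 files of single libraries equal the columns of the gene matrix. Of 1238 genes with all 6 values between 0.01 and 0.3 FPKM, 235 had a lowest value of 0.01, the rounding step, so whole reads were not recovered and no count test was run.

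Libraries were grouped by title, since another label raises the number in the line's name by 1 per replicate. limma 3.58.1 was run in R 4.3.3: log2(FPKM + 0.1) of the 13465 genes with a mean of at least 0.1 FPKM was fitted with 1 term for the line (eBayes with trend), with Benjamini-Hochberg adjustment over all of them. A fold change on this scale understates that of low genes. The fit was tested on simulated data. Gene positions came from GENCODE release 29 (GRCh38), gene order and promoters from RefSeq (GRCh38.p14). Python 3.11.15 with pandas 2.3.3 and matplotlib 3.10.9 was used for the rest.

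Values in every library are given for transferases with a mean of at least 1 FPKM in a line; of the pathway genes, those called with over 2-fold change at such a level and the most expressed of each list are named, and CMAS and NCAM1 were added after their values were seen. The members and lists were chosen with earlier results of these data known. The alternatives were pseudocounts of 1 and 0.01, no filter, a filter at 1 FPKM, quantile normalization, median-of-ratios scaling, eBayes with no trend, a replicate block and each library left out.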

Additional observations from a re-analysis of the deposited data

How the results depend on the processing

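Of the 35 transferase fold changes, 24 kept their direction and their side of adjusted p = 0.05 under every alternative that tested them. Among them were those of ST3GAL6, ST6GAL1, ST6GALNAC4, ST6GALNAC5, FUT8, GALNT3, GALNT5, GALNT7, GALNT10, GALNT12 and GALNT16. The 2-fold line is not part of that count, and some of the 24 crossed it. ST6GALNAC5 came to 0.79, ST3GAL5 to 0.75 and ST8SIA5 to 0.30 with a pseudocount of 1. ST6GALNAC4 came to -1.04 after median-of-ratios scaling and -1.05 after quantile normalization. GALNT12, ST8SIA5, FUT2 and GALNT9 were not tested with the filter at 1 FPKM. Quantile normalization moved the all-gene median log2 change from 0.08 to -0.06 and the share of higher genes among all calls over 2-fold from 71.5% to 53.9%, and the median of the transferases from 0.23 to 0.06. With a pseudocount of 1, 7 transferases and 6 pathway genes rose by over 2-fold in place of 11 and 11, and with a filter at 1 FPKM 7 pathway genes did, as fewer low genes are tested. Transferases lower by over 2-fold numbered 1 after median-of-ratios scaling and 1 after quantile normalization, and 2 pathway genes were lower after median-of-ratios scaling, in place of 0 and 1. With each library left out in turn these counts ran from 0 to 1 (1 without MDA-MB-231-BR replicate 3, where ST6GALNAC2 passed) and from 1 to 2. The difference in summed α2,8-sialyltransferases, -0.07 FPKM with all libraries, ran from -0.205 to 0.04 with a library left out, turning positive without MDA-MB-231-BR replicate 1, and was -0.63 FPKM after quantile normalization. Changes of sign in single genes were small: FUT4 ran from -0.099 to 0.063 and GALNT18 from -0.050 to 0.024 with a library left out, GALNT1 came to -0.025 and -0.0070 under median-of-ratios scaling and quantile normalization, and FUT10 to -0.032 under the latter. The cause was not tested. Same-numbered libraries of the lines did not deviate together (correlations 0.087, -0.040 and -0.106 over 11124 genes), and the replicate block gave 20 higher and 8 lower transferases, 11 of them higher by over 2-fold, the numbers found without it. The numbers of fragments behind low values are not known, so values near 0.01 FPKM limit what can be said of the least expressed genes.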
